A study of Rattus norvegicus with 33 samples.

Results

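The genes described here are 31 genes of cholesterol and fatty acid synthesis, followed here in the prostate of male Sprague-Dawley rats. They were chosen as a list of gene names, with earlier results of these data known. The shares of all genes given beside them therefore describe the list and do not test it. Each was found in the arrays by its own name. All 31 were among the 23352 genes tested, and the brightest probe of each was well above background on 33 of 33 arrays. They fall into 5 roles: 7 act in the mevalonate stage, 10 lead from squalene to cholesterol, 5 are regulators, 2 bind or carry sterols, and 7 make fatty acids or supply their building blocks.

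The study asked how estrogen given to newborn males and hormone implants given to adults, alone or together, alter gene expression in the prostate. Pups received estradiol benzoate (EB, an injectable estrogen ester), at 2.5 mg/kg by subcutaneous injection on PND (postnatal day) 1, 3 and 5, and control pups received the vehicle. From PND 90 the adults carried silastic tubes that held testosterone and estradiol (T+E) or were empty, so that prostates taken at PND 100 and PND 145 had 10 and 55 days of implants. The 10 groups were vehicle-injected controls and EB rats at PND 30, 4 arrays each and without implants; controls, EB, T+E and EB+T+E at PND 100, 3 arrays each; and the same at PND 145, with 4 arrays for EB and 3 for each other group. At PND 100 and 145 the control and EB groups carried empty tubes, the T+E group had vehicle as pups, and the EB+T+E group had both EB and filled tubes. Samples came from 3 to 4 litters per group by the labels, which do not tie arrays to litters, so the p-values rest on the spread from array to array.

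The samples are labelled whole prostate and the series title names the dorsolateral prostate. Each of the 33 single-colour arrays held 58717 spots. The share well above background was 61.5% to 68.9%, and the number of arrays limits the precision. Arrays of 1 group correlated at 0.864 to 0.986 over genes, lowest in EB+T+E at PND 100. Secretory genes of the ventral lobe (Sbp, Scgb1d2, Scgb2a1 and Scgb1d4) were well above background in every group, and their mean log2 level spanned over 4 log2 units between arrays of 1 group in 4 of the 10 groups. Sperm-cell genes (5 spermatid markers) were high in the controls at PND 145, with a summed log2 level of -2.16 to 5.59 against -5.61 to -4.82 in T+E at PND 145. Because these are bulk samples, fewer cells of a type and less RNA per cell cannot be told apart.

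Cells build cholesterol from acetyl-CoA through mevalonate, isoprenoid units, squalene and lanosterol, and build fatty acids from the same acetyl-CoA. Transcription of both sets of enzymes is driven by the SREBP proteins, which the escort protein SCAP carries out of the endoplasmic reticulum when sterols are scarce and which INSIG proteins hold back when sterols are plentiful. The prostate epithelium is known for active lipid synthesis, and androgens are known to raise its lipogenic enzymes through the same SREBP system.

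Promoter sequences are shown, because members of this pathway are known to share promoter elements bound by SREBP and its partners. The 4 genes are examples with large differences between the T+E groups. Others with large differences, such as Cyp51 and Scd, are not shown. RefSeq promoters of build GRCr8, 250 bases before to 50 after the start, were found for 24 of the 31 genes. Capitals mark the CCAAT letters that NF-Y is known to bind, which read as ATTGG where they lie on the opposite strand of the gene. They also mark the GGGCGG letters that Sp1 is known to bind, which read as CCGCCC where they lie on the opposite strand. The last form and the first motif could overlap in their C bases, and the printed matches are separate. The 4 lines give the 250 bases upstream of each start, 5′ to 3′ along the gene.
Hmgcs1 (chr2:53382054-53382303, plus strand): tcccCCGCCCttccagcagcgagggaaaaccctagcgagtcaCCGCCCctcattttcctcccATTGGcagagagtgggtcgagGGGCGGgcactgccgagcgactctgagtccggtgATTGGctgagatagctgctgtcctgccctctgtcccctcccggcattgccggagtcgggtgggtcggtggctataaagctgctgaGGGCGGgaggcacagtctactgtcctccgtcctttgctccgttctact
Idi1 (chr17:66547525-66547774, minus strand): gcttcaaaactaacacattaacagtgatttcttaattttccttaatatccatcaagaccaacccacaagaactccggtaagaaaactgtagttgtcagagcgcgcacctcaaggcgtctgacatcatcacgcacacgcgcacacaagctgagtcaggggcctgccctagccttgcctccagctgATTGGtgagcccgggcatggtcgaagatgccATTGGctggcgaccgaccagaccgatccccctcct
Fdps (chr2:176804817-176805066, minus strand): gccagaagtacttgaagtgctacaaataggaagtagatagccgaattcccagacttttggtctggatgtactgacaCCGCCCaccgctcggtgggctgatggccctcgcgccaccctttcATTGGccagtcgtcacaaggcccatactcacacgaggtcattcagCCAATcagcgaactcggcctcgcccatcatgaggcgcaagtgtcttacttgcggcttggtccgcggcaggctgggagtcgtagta
Msmo1 (chr16:29746863-29747112, plus strand): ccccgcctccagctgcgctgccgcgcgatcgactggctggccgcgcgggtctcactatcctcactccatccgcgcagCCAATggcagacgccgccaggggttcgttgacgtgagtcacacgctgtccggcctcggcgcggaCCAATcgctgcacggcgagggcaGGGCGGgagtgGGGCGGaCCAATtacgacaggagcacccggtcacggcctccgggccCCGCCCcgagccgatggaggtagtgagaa

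Over the whole 300-base window, CCAAT was present on either strand in 18 of the 24 promoters, against 37.5% of 33469 RefSeq promoters of the same length. GGGCGG was present in 20 of the 24, or 83.3%, against 33.1% of all promoters. The letters TCACNCCAC, a form of the sterol regulatory element searched on both strands (GTGGNGTGA), were in 0 of the 24 and in 1.12% of all promoters. A match is a description of the letters and not of binding, and the lack of one says only that these letters are not in this window.

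Levels are given as log2 signal relative to the 75th percentile of the same array, so 0 is the signal of a spot at that percentile. Probes differ in brightness, and levels are compared between arrays for 1 gene, not between genes. Tests are from limma over all 10 groups, with Benjamini-Hochberg adjustment over all genes at 0.05, and each difference is given ± SE of that fit.

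Across the series the synthesis genes were highest after 10 days of T+E and low after 55 days. At PND 100, 29 of the 31 genes had a higher mean in T+E than in control, against 45.9% of all genes, with a median log2 difference of 0.83 against -0.04 for all genes. At PND 145, 29 of the 31 had a lower mean in T+E than in control, against 53.8% of all genes, with a median of -0.69, again against -0.04 for all genes. No single gene passed the test in either comparison or between the T+E groups. Of the 31 genes, 24 had their highest group mean in T+E at PND 100, 18 had their lowest in EB+T+E at PND 145, and 6 each had their lowest in EB at PND 100 and T+E at PND 145.

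To describe the genes together, each was centred on its own mean over the 33 arrays and the median over the 31 genes was taken on each array. Group means of this value were 0.79 ± 0.61 in T+E at PND 100 (SD, n = 3), 0.26 ± 0.14 in controls at PND 30 (n = 4), 0.26 ± 0.28 in controls at PND 145 (n = 3), 0.13 ± 0.32 in EB at PND 30 (n = 4) and 0.11 ± 0.42 in EB at PND 145 (n = 4). Below these stood controls at PND 100 with 0.00 ± 0.18 (n = 3), EB+T+E at PND 100 with -0.09 ± 1.17 (n = 3), T+E at PND 145 with -0.36 ± 0.09 (n = 3), EB at PND 100 with -0.57 ± 0.87 (n = 3) and EB+T+E at PND 145 with -0.70 ± 0.54 (n = 3). Each pair of neighbours in this order differed by less than the pooled SD within groups, 0.54. The 3 arrays of T+E at PND 100 stood at 0.21, 0.74 and 1.43, and the 3 of T+E at PND 145 at -0.32, -0.47 and -0.30, without overlap.

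**Figure D1:**
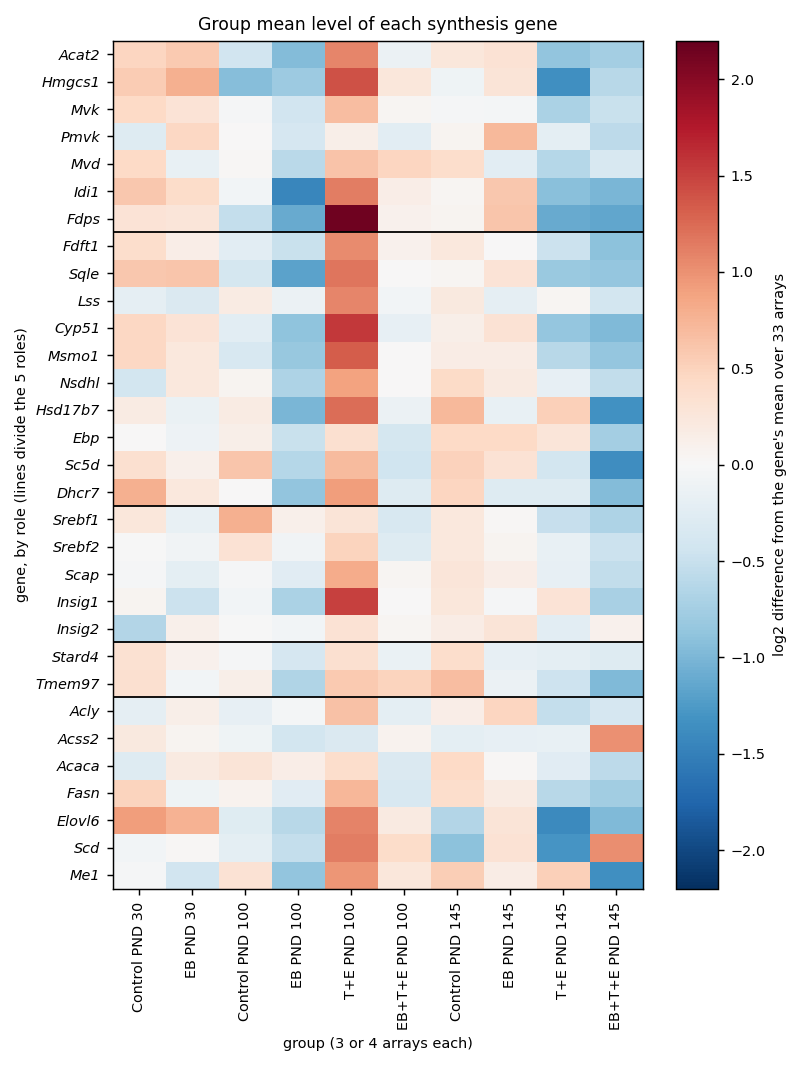
Heat map of the group mean of each of the 31 genes, as the log2 difference from the gene's own mean over 33 arrays, with groups of 3 or 4 arrays in columns and genes by role in rows (black lines divide the 5 roles). The T+E PND 100 column is the highest for 24 genes and the EB+T+E PND 145 column the lowest for 18.

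The comparison of T+E at PND 145 with T+E at PND 100 asked what changed between 10 and 55 days of the same implants, in animals that also differed in age. The mean was lower at PND 145 for 30 of the 31 genes, against 47.3% of all genes, with a median log2 difference of -1.16 against 0.03 for all genes. Acss2, which activates acetate, was the exception at 0.15 ± 0.31. By limma's test 0 of the 31 passed after adjustment, where 10 genes or 0.0428% of all did. At an unadjusted p under 0.05, 17 of the 31 passed, all of them lower, against 4.04% of all genes. The 3 arrays of PND 145 lay wholly below the 3 of PND 100 for 25 of the 31, against 9.56% of all genes. The smallest adjusted p among the 31 was 0.0572, for Hmgcs1 and Elovl6.

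The largest block of differences was in the mevalonate stage, where 6 of 7 genes passed the unadjusted threshold with a stage median of -1.95. Hmgcs1, which makes HMG-CoA (probe at chr2:51754514-51754573, rn4, plus strand), stood at 3.59, 3.88 and 5.11 in T+E at PND 100 and at 1.31, 1.68 and 1.36 in T+E at PND 145. Its arrays of the 2 ages did not overlap, and the difference was -2.74 ± 0.57, a 6.68-fold lower level (limma adjusted p = 0.0572). In controls Hmgcs1 was at 1.87, 1.71 and 2.00 at PND 100 and at 2.69, 1.99 and 3.41 at PND 145, so each T+E array at PND 100 lay above all control arrays of these ages. Controls at PND 30 were at 3.02 to 4.14 and overlapped the T+E arrays at PND 100. So did EB at PND 30 and PND 145 and EB+T+E at PND 100.

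Fdps, the synthase of farnesyl diphosphate (probe within chr2:181170192-181170336, rn4, minus strand), had the largest difference of the 31. It was at 3.36, 4.27 and 4.95 in T+E at PND 100 and at 1.00, 0.79 and 1.08 in T+E at PND 145, without overlap, a difference of -3.23 ± 0.91 (limma adjusted p = 0.189). A dimmer Fdps probe, well above background on 33 arrays, gave -0.11 ± 0.26, so the difference rests on the brighter probe and is uncertain for the gene. Differences of Fdps in later comparisons are also of the brighter probe, and the dimmer one was not fitted alone there. Idi1, the isomerase that readies isoprenoid units (probe at chr17:72557223-72557282, rn4, minus strand), was at 1.47, 2.17 and 2.54 at PND 100 and at 0.09, 0.05 and -0.07 at PND 145. The Idi1 arrays did not overlap either, and the difference was -2.04 ± 0.60 (limma adjusted p = 0.211), with -2.19 ± 0.73 from its other probe.

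Acat2, the cytosolic thiolase that joins acetyl-CoA units (probe at chr1:41939864-41939923, rn4, plus strand), was at 0.80, 1.33 and 2.30 at PND 100 and at -0.44, -0.84 and -0.13 at PND 145. Its difference was -1.95 ± 0.65 (limma adjusted p = 0.306), and 3 further Acat2 probes seen on 33 arrays gave -1.64 to -1.85. A much dimmer Acat2 probe, well above background on 25 arrays, gave 0.20 ± 0.57. Both kinases and the decarboxylase follow HMG-CoA reduction. Mvk, mevalonate kinase, was at -2.93, -2.50 and -1.92 and then at -3.68, -3.70 and -4.05, a difference of -1.36 ± 0.33 (limma adjusted p = 0.117). Mvd, the decarboxylase (probe at chr19:52722404-52722463, rn4, minus strand), was at -0.32, -0.25 and 0.87 and then at -1.09, -1.15 and -1.23, a difference of -1.26 ± 0.34 (limma adjusted p = 0.172). Neither of these overlapped between the ages. Pmvk, phosphomevalonate kinase, had the smallest difference of the stage at -0.34 ± 0.30.

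In the stage from squalene to cholesterol all 10 genes had a lower mean at PND 145, 5 of them at an unadjusted p under 0.05, with a stage median of -1.15. Cyp51, the lanosterol demethylase (probe at chr4:26770011-26770070, rn4, plus strand), was at 2.90, 3.49 and 4.32 at PND 100 and at 1.28, 0.74 and 1.46 at PND 145, a difference of -2.41 ± 0.79 (limma adjusted p = 0.295). Sqle, squalene epoxidase (probe at chr7:96111693-96111752, rn4, plus strand), was at 0.73, 1.43 and 2.24 and then at -0.42, -0.60 and -0.59, a difference of -2.01 ± 0.61 (limma adjusted p = 0.244). Dimmer probes, well above background on 33 arrays, gave -1.33 ± 0.79 for Sqle and -2.04 ± 0.72 for Cyp51. Msmo1, the methylsterol monooxygenase (probe at chr16:26716174-26716233, rn4, plus strand), was at 3.26, 3.55 and 4.79 and then at 1.90, 1.84 and 2.05, a difference of -1.94 ± 0.55 (limma adjusted p = 0.189). All 3 were higher on every array of PND 100 than on any of PND 145. The squalene synthase Fdft1 differed by -1.52 ± 0.64, the lanosterol synthase Lss by -1.03 ± 0.39 and the last reductase Dhcr7 by -1.20 ± 0.59. The sterol isomerase Ebp was nearly level at -0.10 ± 0.39. Sc5d, a sterol desaturase, gave -1.11 ± 0.63 from its brighter probe and 0.18 ± 0.58 from the other. In later comparisons Sc5d is also read by its brighter probe only.

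Among regulators none of 5 passed even the unadjusted threshold, with a median of -0.77. Insig1, the sterol-sensing retention protein and itself a known SREBP target, differed by -1.21 ± 0.76, and its escort partner Scap by -0.99 ± 0.49. The transcription factor genes Srebf1 and Srebf2 differed by -0.77 ± 0.40 and -0.65 ± 0.32, and Insig2 by -0.55 ± 0.35. Both sterol-binding genes were lower at an unadjusted p under 0.05. Tmem97, a sterol-responsive membrane protein (probe at chr10:64653336-64653395, rn4, minus strand), was at -2.11, -1.75 and -1.12 and then at -2.55, -2.93 and -2.57, a difference of -1.02 ± 0.38 (limma adjusted p = 0.416). Stard4, a cytosolic sterol carrier, differed by -0.57 ± 0.25.

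In fatty acid synthesis 4 of 7 genes were lower at an unadjusted p under 0.05, with a median of -1.16. Elovl6, which lengthens the palmitate that Fasn makes (probe at chr2:227054046-227054105, rn4, plus strand), was at -1.42, -0.73 and 0.00 in T+E at PND 100 and at -3.65, -3.20 and -2.79 in T+E at PND 145. The ages were more than 1 log2 unit apart at their nearest arrays, and the difference was -2.49 ± 0.52, a 5.64-fold lower level (limma adjusted p = 0.0572), with -3.66 ± 0.70 from a dimmer probe. Scd, the desaturase of stearate (probe at chr1:249458860-249458919, rn4, minus strand), was at -2.38, 0.45 and -0.78 and then at -4.42, -1.89 and -3.69, a difference of -2.43 ± 0.89 (limma adjusted p = 0.398). Its arrays overlapped, since replicate 1 of PND 100 lay below replicate 2 of PND 145. Fasn, the fatty acid synthase, differed by -1.33 ± 0.52 and the citrate lyase Acly by -1.16 ± 0.52. The acetyl-CoA carboxylase Acaca differed by -0.64 ± 0.34 and the malic enzyme Me1 by -0.44 ± 0.42.

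**Figure D2:**
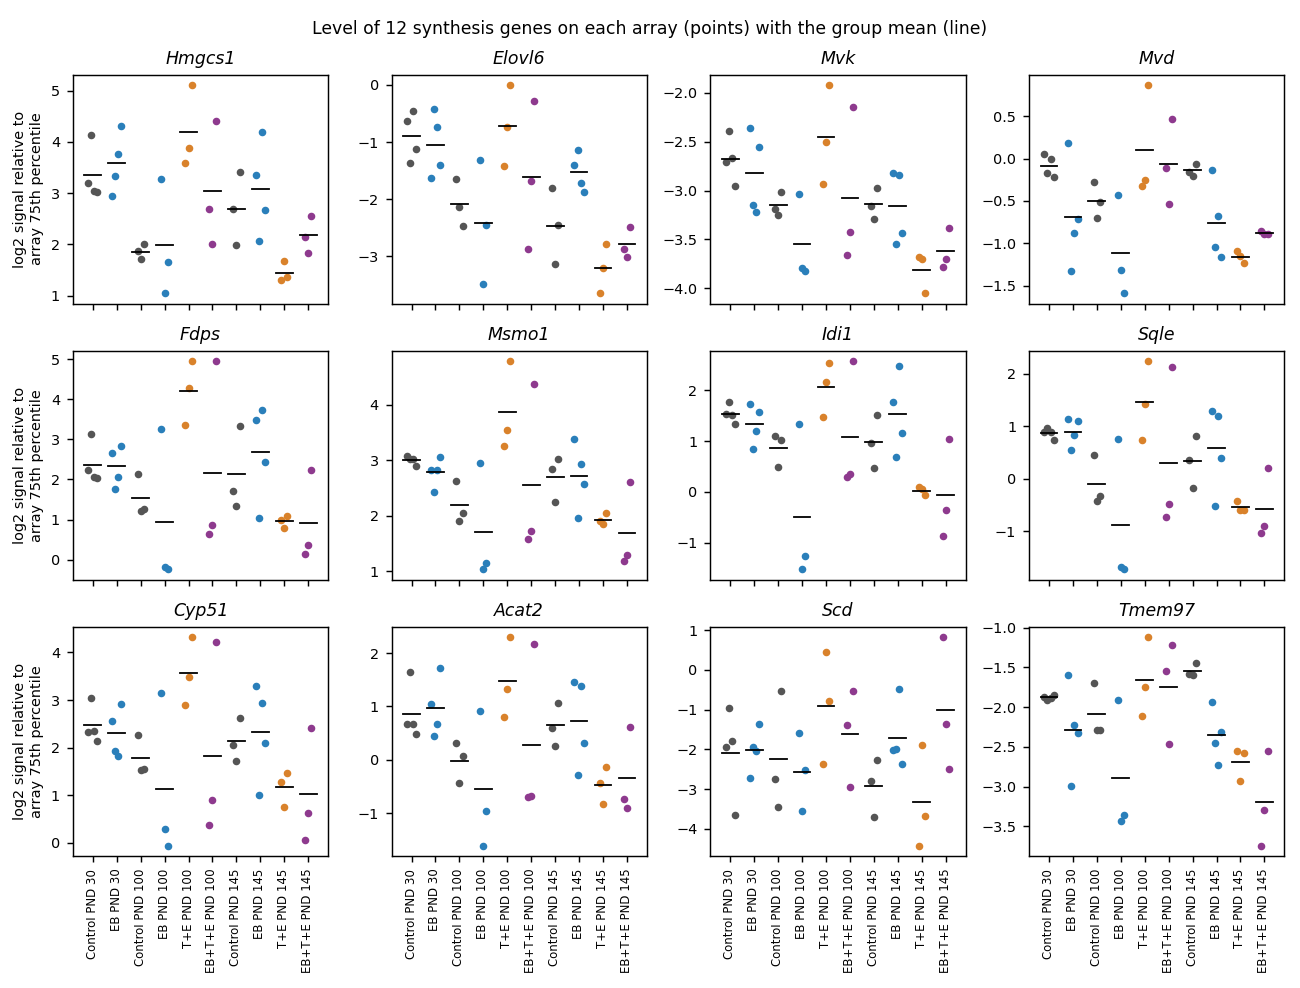
Level of the 12 genes with the smallest unadjusted p between the T+E groups, on each of 33 arrays (points, coloured by treatment) with the group mean (line); the vertical axis is log2 signal relative to the array's 75th percentile, on a scale of its own for each gene. Hmgcs1 stands at 3.59 to 5.11 in T+E at PND 100 and at 1.31 to 1.68 in T+E at PND 145. For some genes, such as Fdps, single arrays of EB and EB+T+E at PND 100 stand far above the others of their group.

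Several settings carried a few genes past the threshold between the T+E groups, and others did not. With normexp background correction, either change of the filter, the authors' table or a covariate for the ventral level the count stayed at 0 of 31. Quantile scaling, the mean of all probes and the replicate block each gave 1. With the array slide as a block Hmgcs1, Elovl6 and Fdps were called, beside 0.527% of all genes, and with only the compared groups in the fit Hmgcs1, Fdps and Idi1, beside 0.647%. Without T+E PND 100 replicate 1, the lowest of its group, the differences of Hmgcs1 and Elovl6 widened and these genes were called, beside 0.146%. Over all fits with 1 array left out the count ran from 0 to 2. Within slide 1 the median difference over the 31 genes was -0.56 and within slide 3 it was -1.81, and in each of these 30 of the 31 genes were lower at PND 145. Each slide held 1 array of either group, so these values carry no test.

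The ventral lobe genes moved with the same comparison. Their mean log2 level was 5.87 ± 0.21 in T+E at PND 100 and 1.60 ± 0.83 in T+E at PND 145 (SD, n = 3 each), with arrays at 5.67 to 6.08 and at 0.64 to 2.11. Their summed log2 level was 7.87 to 8.19 against 3.21 to 4.92, their median difference was -4.01, 3 of the 4 were lower at an unadjusted p under 0.05, and 0 of 4 passed after adjustment. In 8 of the 10 groups the array highest in ventral products was also the highest in the centred median of the 31 genes, and in 5 of 10 the lowest was also the lowest. With 3 or 4 arrays in a group some matches arise by chance, and they were not tested. At the high end the match did not hold in either of the T+E groups compared here. In T+E at PND 100 replicate 2 was highest in ventral products and replicate 3 in the 31 genes, while replicate 1 was lowest in both. In T+E at PND 145 replicate 3 was lowest in ventral products, at 0.64, and highest in the 31 genes, at -0.30. With the ventral level of each array as a covariate, added after seeing the data, the median difference of the 31 genes was -0.51, with 27 of 31 lower and 0 called. The ventral levels of the T+E groups did not overlap, so this fit cannot separate the ventral level from the group. The part of ventral tissue in the difference was not tested. The adipocyte list, with 10 of 10 genes measured, had a summed log2 level of 1.32 to 5.01 at PND 100 and 1.56 to 2.75 at PND 145, a median difference of -1.40 and 0 called, and its part was not tested. Of the other lists, dorsolateral products, luminal and basal epithelium, fibroblast, smooth muscle, endothelium, leukocyte, Schwann cell and spermatid genes had medians of -0.21 to 0.35, seminal vesicle products had -2.07, and each had 0 called.

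**Figure D3:**
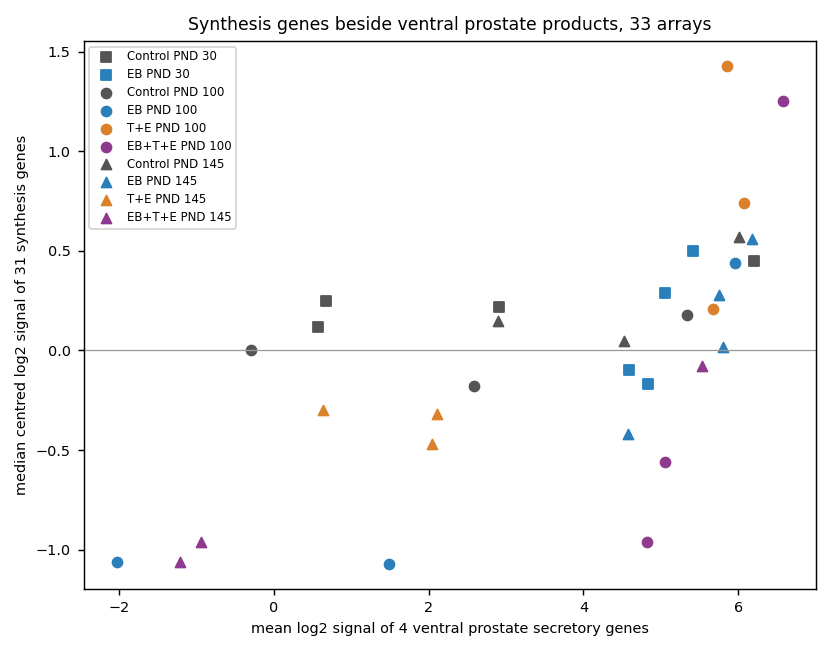
Each of the 33 arrays by the mean log2 signal of 4 ventral prostate secretory genes (horizontal) and the median centred log2 signal of the 31 synthesis genes (vertical); colour gives the treatment and shape the age (squares PND 30, circles PND 100, triangles PND 145). The T+E arrays at PND 100 lie between 5.67 and 6.08 on the horizontal axis and between 0.21 and 1.43 on the vertical, while those at PND 145 lie between 0.64 and 2.11 and between -0.47 and -0.30.

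T+E against control at PND 100 gave the response to 10 days of implants. Differences were above 0 for 29 of the 31 genes, from -0.50 to 2.65. By limma's test 0 of 31 passed, where 45 genes or 0.193% of all did, and at an unadjusted p under 0.05 there were 10, all higher, against 4.24% of all genes. The arrays did not overlap, with T+E higher, for 15 of the 31 against 10.4% of all genes. Hmgcs1 was 2.33 ± 0.57 higher (limma adjusted p = 0.0877), Fdps 2.65 ± 0.91 (adjusted p = 0.305), Cyp51 1.79 ± 0.79 (adjusted p = 0.515) and Msmo1 1.68 ± 0.55 (adjusted p = 0.27). The stage medians were 1.19 for mevalonate, 0.99 for squalene to cholesterol, 0.65 for fatty acid synthesis, 0.40 for sterol transport and 0.32 for regulators. Srebf1 at -0.50 ± 0.40 and Acss2 at -0.22 ± 0.31 were the exceptions. With only these groups in the fit Hmgcs1 and Fdps were called, beside 1.06% of all genes. The median over the 31 genes was 0.32 within slide 1, 0.54 within slide 2 and 1.45 within slide 3. The ventral products had a median difference of 3.14 with 0 called, and control arrays at PND 100 ranged from -0.30 to 5.34 in their mean level. The other cell marker lists had medians of -0.66 to 0.55 with 0 called, and the part of the cell makeup was not tested. With the ventral covariate the median over the 31 genes was 0.41.

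T+E against control at PND 145 gave the response to 55 days. It shares its T+E arrays with the comparison of the ages and has controls of its own. Differences were from -1.25 to 0.05, 0 of 31 passed limma's test where 90 genes or 0.385% of all did, and 4 had an unadjusted p under 0.05, all lower, against 5.25% of all genes. The arrays lay wholly below the controls for 22 of the 31 genes against 12.7% of all genes. Those 4 were Mvd at -1.02 ± 0.34, Tmem97 at -1.14 ± 0.38, Hmgcs1 at -1.25 ± 0.57 and Stard4 at -0.60 ± 0.25, with limma adjusted p-values of 0.239, 0.24, 0.461 and 0.392. For Mvd the controls were at -0.16, -0.20 and -0.06, above every T+E array. Insig1, Acss2 and Me1 were nearly level, at 0.05 ± 0.76, 0.05 ± 0.31 and 0.00 ± 0.42. The median over the 31 genes was -0.60, -0.42 and -0.77 within slides 1, 3 and 4. The ventral products had a median difference of -2.96 with 0 of 4 called and the spermatid genes -6.48 with 4 of 5 called. Fibroblast genes had a median of 1.26 and leukocyte genes 0.99, with 5 of 6 and 3 of 7 higher at an unadjusted p under 0.05. The adipocyte median was 1.41, the seminal vesicle median -4.02, and the other cell marker lists had medians of -0.55 to 0.58. None of these had a call after adjustment, and the part of the cell makeup was not tested. With the ventral covariate the median over the 31 genes was -0.25.

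The difference of these effects, T+E minus control at PND 145 less the same at PND 100, tests whether the response to the implants differed between 10 and 55 days. It was below 0 for 30 of the 31 genes and 47.2% of all genes, with a median of -1.47 against 0.03 for all genes. Again 0 of 31 passed limma's test, where 6 genes or 0.0257% of all did, and 14 of the 31 had an unadjusted p under 0.05, all below 0, against 3.13% of all genes. The smallest adjusted p was 0.201, for Hmgcs1 at -3.58 ± 0.81. Fdps followed at -3.82 ± 1.29, Cyp51 at -2.76 ± 1.12, Acat2 at -2.61 ± 0.92 and Msmo1 at -2.45 ± 0.78, while Acss2 was at 0.27 ± 0.44. The median was -1.03 within slide 1 and -1.94 within slide 3, and -0.60 with the ventral covariate. Between the control groups, PND 145 against PND 100, the median was 0.31 and 0 of 31 passed, as did 0% of all genes. At an unadjusted p under 0.05 there were 0 of 31 and 583 genes or 2.5% of all.

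**Figure D4:**
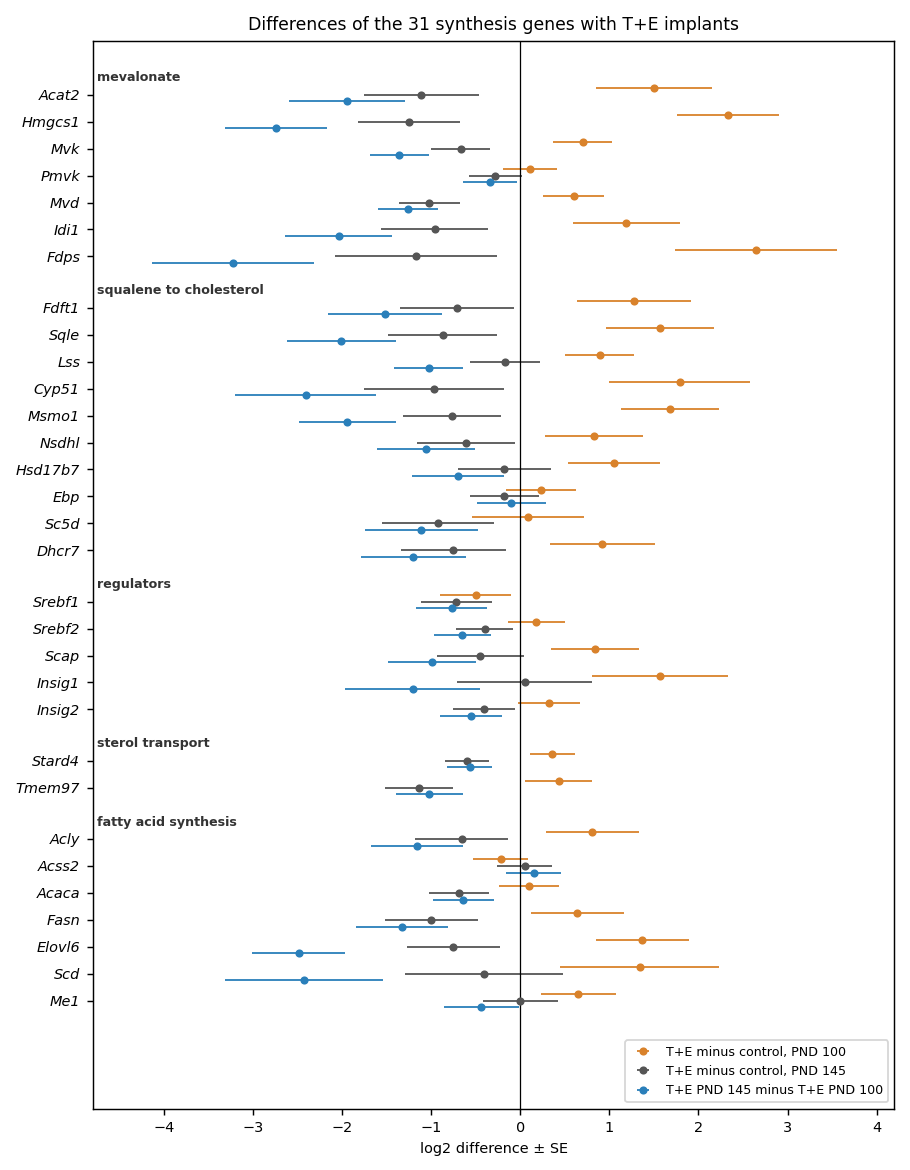
Log2 differences (points) with SE (bars) of the 31 genes by role, for T+E minus control at PND 100, T+E minus control at PND 145, and T+E at PND 145 minus T+E at PND 100. Points for PND 100 lie to the right of 0 for 29 genes, points for PND 145 to the left for 29, and points for the T+E groups to the left for 30.

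EB+T+E rats at PND 145 were the only animals in which single synthesis genes passed the test, and there 8 of 31 did against control while 35.2% of all genes did. Acss2, which makes acetyl-CoA from acetate, was the 1 that rose, and 7 fell. Those that fell were Me1, Tmem97, Hsd17b7, Ebp, Sc5d, Acaca and Stard4. Fall was seen in 20.6% of all genes and rise in 14.6%, so the share of 22.6% for fall among the 31 was close to the background. The median over the 31 genes was -0.96 against -0.24 for all genes, and 29 of the 31 were lower, against 59.1% of all genes.

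Me1, the malic enzyme that supplies NADPH, was at 2.84, 2.87 and 3.11 in controls and at 0.76, 0.91 and 1.5 in EB+T+E. All its EB+T+E arrays lay over 1 log2 unit below the controls, and it fell by 1.88 ± 0.42 (3.68-fold, limma adjusted p = 0.00143). Tmem97 was at -1.58, -1.60 and -1.45 in controls and at -3.74, -3.29 and -2.55 in EB+T+E, and fell by 1.65 ± 0.38 (limma adjusted p = 0.0018). Hsd17b7, a reductase of sterol demethylation, was at -1.26, -1.36 and -1.61 and at -4.04, -3.90 and -2.44, and fell by 2.05 ± 0.52 (limma adjusted p = 0.00409). Acss2 was at -2.77, -3.09 and -3.35 in controls and at -2.0, -1.57 and -1.94 in EB+T+E, and rose by 1.23 ± 0.31 (limma adjusted p = 0.00391). For each of these 4 the groups did not overlap. Among the 12 genes of the T+E comparison, Tmem97 alone passed here. Hmgcs1 was at -0.52 ± 0.57 and Elovl6 at -0.33 ± 0.52, and Scd was at 1.91 ± 0.89 (limma adjusted p = 0.0927).

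The count of 8 moved with single libraries, and the share of all genes called moved with it. Without Control PND 145 replicate 2 it was 5, beside 24.6% of all genes, and without Control PND 145 replicate 3 it was 5, beside 28.6%. Without EB+T+E PND 145 replicate 1 it was 4, beside 22.1%, and without EB+T+E PND 145 replicate 2 it was 5, beside 24.8%. The highest count was 12, without EB+T+E PND 145 replicate 3, beside 36.5% of all genes. Replicate 3 of EB+T+E at PND 145 stood apart, with a centred median of -0.08 over the 31 genes and a mean ventral level of 5.53, against -1.06 and -0.96 and against -1.22 and -0.94 in the others. Within slide 3 the median over the 31 genes was -0.85 and within slide 4 it was -0.57. With the ventral covariate 5 of 31 were called, beside 26.1% of all genes, and the median was -0.36.

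Other cell markers moved with the same comparison. All 7 leukocyte genes rose, with a median of 4.71 and a summed log2 level of 4.84 to 5.78 against 1.16 to 1.96 in controls, and all 6 fibroblast genes rose with a median of 2.08. Of the endothelial genes 4 of 5 rose, of the Schwann cell genes 3 of 7 and of the adipocyte genes 2 of 10. Of the luminal epithelial genes 3 of 7 fell with a median of -1.0, and 2 of 3 dorsolateral, 1 of 4 ventral, 2 of 6 seminal vesicle, 1 of 3 basal, 1 of 5 smooth muscle and 5 of 5 spermatid genes fell. The part of the cell makeup in the synthesis genes was not tested.

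Against T+E alone at PND 145, 3 of the 31 genes passed in EB+T+E, where 21.3% of all genes did. Acss2 rose by 1.19 ± 0.31 (limma adjusted p = 0.00815), Me1 fell by 1.88 ± 0.42 (adjusted p = 0.00248) and Hsd17b7 fell by 1.87 ± 0.52 (adjusted p = 0.0121). The median over the 31 genes was -0.18, near the -0.16 of all genes. It was -0.30 within slide 3 and 0.29 within slide 4. The count was 5 without EB+T+E PND 145 replicate 3, beside 24.4% of all genes, and 1 without T+E PND 145 replicate 3, beside 10%. All 7 leukocyte genes rose here too, with a median of 3.72.

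Against EB alone at PND 145, 6 of the 31 passed in EB+T+E, where 22.8% of all genes did, and the median was -0.84 against -0.22. Acss2 rose by 1.19 ± 0.29 (limma adjusted p = 0.00481). Pmvk fell by 1.29 ± 0.28 (adjusted p = 0.00192), from 1.58, 0.59, 1.80 and 1.03 in EB to -0.37, 0.22 and 0.03 in EB+T+E, without overlap. Me1 fell by 1.5 ± 0.39 (adjusted p = 0.00756) and Ebp by 1.18 ± 0.36 (adjusted p = 0.0204), and Sc5d and Idi1 fell too. The median was -1.82, -0.38 and -0.50 within slides 2, 3 and 4. The count was 3 without EB PND 145 replicate 1 or replicate 3, beside 15.8% and 18.1% of all genes. It was 2 without EB+T+E PND 145 replicate 1 and 3 without its replicate 2, beside 11.9% and 12.8%, and 8 at most, without its replicate 3, beside 25.9%. The ventral products fell for 2 of 4 genes with a median of -5.09. With the ventral covariate 2 of 31 synthesis genes were called, beside 11.3% of all genes, and their median was -0.14. All 7 leukocyte genes rose with a median of 3.68, as did 4 of 6 fibroblast, 3 of 5 endothelial and 1 of 10 adipocyte genes, while 2 of 7 luminal, 1 of 3 basal and 1 of 5 smooth muscle genes fell. The part of these cells was not tested.

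At PND 100 the combined treatment was split between arrays. The centred median over the 31 genes was -0.96, -0.56 and 1.25 on the 3 EB+T+E arrays, and the ventral level was 4.82, 5.05 and 6.58. Hmgcs1 was at 2.70, 2.01 and 4.40 and Fdps at 0.65, 0.87 and 4.95, so that replicate 3 lay within the range of T+E at the same age for Hmgcs1 and the other replicates below it. Against control 0 of 31 passed, where 12.6% of all genes did, with a median of 0.05 and 1 gene at an unadjusted p under 0.05 against 28% of all. Without replicate 3 of EB+T+E the median was -0.66 and 4 passed, where 24.6% of all genes did, all of them lower: Ebp, Sc5d, Srebf1 and Srebf2. Against T+E alone 0 of 31 passed, where 3.99% of all genes did, with a median of -0.87, 30 of 31 lower against 56.2% of all genes, and 7 lower at an unadjusted p under 0.05 against 11.8%. Without replicate 3, 23 of the 31 passed, where 23.7% of all genes did, and all 23 were lower. Among them were Lss at -1.75 ± 0.35, Msmo1 at -2.22 ± 0.48 and Fdps, by its brighter probe, at -3.43 ± 0.83. Within slides 1 and 2, which hold the other 2 arrays, the median was -1.16 and -1.29.

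Against EB alone at PND 100, 0 of 31 passed in EB+T+E, where 1.7% of all genes did, and 4 were higher at an unadjusted p under 0.05 against 6.21%. The median was 0.59, with 26 of 31 higher against 46.2% of all genes, and its direction changed in some settings. Without EB+T+E PND 100 replicate 3 it was -0.19, without EB PND 100 replicate 1 it was 1.23, and with the ventral covariate it was -0.02. Within slides 1, 2 and 4, each with 1 array of either group, the median was 0.12, 0.52 and 0.96. Only slide 4 held EB+T+E PND 100 replicate 3. After adjustment 4 genes were called without EB PND 100 replicate 1 (Idi1, Me1, Mvd and Tmem97), beside 2.93% of all genes. Without EB+T+E PND 100 replicate 2 there were 2 (Mvd and Tmem97), beside 5.04%.

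Other cell markers moved with EB+T+E at PND 100. Against control 5 of 7 leukocyte genes rose with a median of 2.33, as did 3 of 6 fibroblast, 2 of 5 endothelial and 11 of 12 proliferation genes. All 3 dorsolateral genes fell, with 3 of 7 luminal, 3 of 6 seminal vesicle and 1 of 5 smooth muscle genes. Against T+E 3 of 7 leukocyte genes rose with a median of 1.99 and 8 of 12 proliferation genes rose, while 1 of 7 luminal and 2 of 6 seminal vesicle genes fell. The dorsolateral median was -1.03 and the luminal median -1.34 in that comparison. The summed log2 level of the leukocyte genes was 4.09 to 4.96 in EB+T+E, 2.30 to 2.73 in T+E and 1.79 to 2.04 in controls, without overlap, and that of the luminal genes was 3.62 to 6.30 in EB+T+E against 6.27 to 6.84 in T+E. Against EB 0 of 7 leukocyte genes passed, with a median of 0.05, and 1 of 12 proliferation genes rose. The part of the cell makeup was not tested.

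Neonatal EB alone left the 31 genes without a call at any age. At PND 30 the median was -0.16 against -0.14 for all genes, and 0 of 31 passed where 0.0471% of all genes did, with 2 higher at an unadjusted p under 0.05 against 2.88%. At PND 145 the median was -0.13, and 0 of 31 passed where 0.57% of all genes did, with 3 at an unadjusted p under 0.05 against 15.2%. At PND 100 the median was -0.48, with 29 of 31 genes lower against 53.4% of all genes, and 0 of 31 passed where 2.65% of all genes did, with 4 lower at an unadjusted p under 0.05 against 10.8%. The EB arrays at PND 100 were divided, with a centred median of 0.44 for replicate 1 and of -1.06 and -1.07 for the others, and with ventral levels of 5.96, -2.03 and 1.49. Without replicate 1 the median was -0.96 and 4 of 31 passed, where 11.6% of all genes did, namely Hsd17b7, Idi1, Me1 and Tmem97, all lower. The median within slides 1 and 2, which hold the other replicates, was -0.82 and -1.31. Leukocyte genes were higher in the same group, with a summed log2 level of 2.66 to 5.12 against 1.79 to 2.04 in controls. From PND 30 to PND 100 in controls the median was -0.21, and 0 of 31 passed where 2.23% of all genes did, with 2 lower at an unadjusted p under 0.05 against 7.01%. With only these groups in the fit 6 passed, where 9.53% of all genes did.

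The other genes of these pathways gave medians nearer 0 between the T+E groups. Of all genes 0.0428% passed there after adjustment and 4.04% were lower at an unadjusted p under 0.05. Of 13 further sterol pathway genes 0 passed between T+E at PND 145 and at PND 100, with a median of -0.13 and 3 at an unadjusted p under 0.05, all lower. Tm7sf2, a sterol reductase, had the smallest p of that list at -2.76 ± 0.74 (limma adjusted p = 0.172). Of 15 genes of sterol uptake, storage and efflux 0 passed, with a median of -0.21 and 2 lower at an unadjusted p under 0.05. Of 23 further genes of fatty acid and glyceride synthesis 0 passed, with a median of -0.34 and 2 lower at an unadjusted p under 0.05. Acacb, the mitochondrial acetyl-CoA carboxylase, had the smallest p there at -2.72 ± 0.88 (limma adjusted p = 0.288). Of 12 proliferation genes 0 passed, with a median of -0.19 and 0 at an unadjusted p under 0.05.

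In EB+T+E at PND 145 against control, genes of these lists passed in both directions. Of all genes 35.2% passed there, with 14.6% that rose and 20.6% that fell. In the sterol uptake, storage and efflux list 5 of 15 rose and 2 fell. Abcg1, a sterol exporter, rose by 3.17 ± 0.47 (9.03-fold, limma adjusted p = 2.15e-05), Lipa, the lysosomal lipase, by 1.77 ± 0.40 (adjusted p = 0.00164) and Scarb1, the HDL receptor, by 1.67 ± 0.33 (adjusted p = 0.000422). Vldlr, the VLDL receptor, fell by 2.38 ± 0.50 (adjusted p = 0.000763). In the fatty acid and glyceride list 7 of 23 fell and 1 rose: Thrsp, a lipogenic protein, fell by 3.17 ± 0.66 (adjusted p = 0.000729), Acsl4, an acyl-CoA synthetase, fell by 2.49 ± 0.38 (adjusted p = 3.13e-05), and Dgat2, which makes triglyceride, rose by 1.92 ± 0.45 (adjusted p = 0.00223). Those that fell among the 13 further sterol pathway genes included the thiolase Acat1, by 1.30 ± 0.19 (adjusted p = 2.4e-05), and the membrane protein Erlin2, by 1.25 ± 0.28. Of the proliferation genes 7 of 12 rose. Leukocyte genes rose with a median of 4.71 in the same comparison, and the part of the cell makeup in these lists was not tested.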

How the data were processed

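Total RNA of 33 rat prostate samples, 500 ng each with RIN of at least 8, was labelled with Cy3 (as the labels' protocols state). Spots were quantified by Agilent Feature Extraction 12.0.0.7 (protocol GE1_1200_Jun14, design 074036, grid build rn4). Per the file headers, the deposited values are linear spot intensities, background-subtracted and detrended within the array. The authors' table of processed values gives linear, uncentred intensities for these arrays, with a 75th percentile of 619.357 to 619.517 and a median of 30.8 to 49.9 per array. No source used here says how it was made, and it served as an alternative.

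Signals were divided by the 75th percentile of their array (control spots left out) and taken as log2. Outlier spots were left out when spots were averaged to probes, unless all spots of a probe on an array were outliers. RefSeq accessions named 21184 of 45598 probes, symbols 9060 and synonyms 406, while 5247 kept the name in the files and 9701 had none. Probes well above background on at least 3 arrays (30553) were kept, and the brightest stood for each of 23352 genes. One limma 3.58.1 fit (R 4.3.3; trended, robust variance) covered the 10 groups, with Benjamini-Hochberg adjustment in each of 15 comparisons. The fit was tested on simulated data.

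Values by array are given for members called between the T+E groups or against control, up to 12 in all by smallest p, and for up to 4 called members elsewhere; other lists name up to 4 called genes, or the 1 with the smallest p. The 31 members and the lists were chosen with earlier results of these data known. Arrays lie on 5 slides, 4 of them with several groups and 1 with a single array, with 1 scan per slide. The labels give replicate numbers and do not tie samples of different groups to each other, so samples were fitted as unpaired. Alternatives covered background correction, scaling, the filter, the probe rule, the slide or replicate block, the groups in the fit, the authors' table, each array left out, and a ventral covariate chosen after seeing the data. The value of 1 gene of the further sterol pathway list is not reported here.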

Additional observations from a re-analysis of the deposited data

Results flagged for a closer look

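In groups of 4 arrays, 39 sets of values of named members were examined for a sample far from the others, of which 1.9 would stand out by chance, and 2 did. Both were replicate 2 of the controls at PND 30. Hmgcs1 was at 4.14 there, with the nearest other array at 3.19. Acat2 was at 1.64 there, with the nearest other array at 0.68. The mean ventral level of that array was 6.21, the highest of its group.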

How the results depend on the processing

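Counts of members called out of 31 changed as follows. For T+E at PND 145 against PND 100 the 0 became 1 with quantile scaling, 1 with the mean of all probes, 3 with the slide as a block, 3 with only the groups compared, and 0 to 2 with 1 array left out. The replicate block gave 1 (Hmgcs1) there and changed the count of members called by over 1.5 times in no other comparison. Same-numbered arrays of the T+E groups deviated with correlations of 0.084, 0.124 and 0.178. In the other comparisons these correlations ran from -0.443 to 0.455, and so few arrays do not settle whether the numbers link samples. With only the groups compared there were 2 for T+E against control at PND 100 and 6 for controls at PND 100 against PND 30. With the slide block there was 1 each for EB against control, EB+T+E against control and EB+T+E against T+E, all at PND 100. At PND 100, for EB+T+E against control, the mean of all probes gave 1 and the ventral covariate, chosen after seeing the data, gave 3. At PND 145, for EB+T+E against control, the 8 became 5 with normexp background correction and 5 with the ventral covariate. Against EB at that age the 6 became 2 with the ventral covariate. With 1 array left out, counts ran from 0 to 4 for EB against control at PND 100, 0 to 4 for EB+T+E at PND 100 against control, 0 to 23 against T+E and 0 to 4 against EB, and 4 to 12 for EB+T+E at PND 145 against control, 1 to 5 against T+E and 2 to 8 against EB. Of 470 settings of named genes 400 kept direction and side of the threshold, 59 lost the call, 11 gained one and 0 reversed. List medians moved beyond the spread in 9 of 236 settings.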
